A study of Mus musculus with 21 samples.

Results

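Hematopoietic stem cells (HSCs) are sorted from mouse bone marrow as cells that lack the surface antigens of mature blood cells. The genes described here encode such lineage antigens. They are the 9 symbols Itgam, Itgax, Itgb2, Cd4, Cd8a, Cd3e, Ptprc, Ly6c1 and Ly6c2, found by name among the 21000 gene symbols of the count table, and each of the 9 had a row. Mac-1 is the heterodimer of the integrin alpha M chain (Itgam, CD11b) and the integrin beta 2 chain (Itgb2, CD18).

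RNA sequencing was performed on 21 libraries of CD150+CD48-Flt3- Lin-Sca-1+c-Kit+ HSCs from wild-type C57BL/6 mice, with 3 libraries in each of 7 groups. PBS or 5-fluorouracil (5-FU), an antimetabolite that kills dividing cells and is followed by cycling of the surviving HSCs, was first given at 10 weeks of age, with 5-FU injected intraperitoneally at 150 mg/kg. Mice that received PBS or 5-FU once and were analysed on day 6, 5 days later, are PBS-1 d6 and 5FU-1 d6. Repeated administration, every 21 days until 3 had been given, with the same day 6 sampling after the last, defined PBS-3 d6 and 5FU-3 d6. HSCs sampled 20 days after a single or the last of 3 administrations of 5-FU are 5FU-1 d21 and 5FU-3 d21. The old group was 2 years old and untreated, and was set against PBS-1 d6 and PBS-3 d6 because young untreated HSCs were not part of the 7 groups.

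The sort bears directly on these genes. Per the study's methods, the lineage antibodies recognised B220, Ter-119, Mac-1, CD4, Gr-1 and CD8a. CD3e and CD11c, the products of Cd3e and Itgax, were not on that list. For HSCs taken 5 days after 5-FU the Mac-1 antibody was left out and the c-Kit gate was widened to dim cells. The sort and the drug therefore changed together in 5FU-1 d6, and their parts cannot be told apart. The methods do not name the schedule of 3 administrations at this point, and the same sort is assumed for 5FU-3 d6. In pooled cells, fewer cells of a type and less RNA per cell cannot be told apart either. The columns of the 6 PBS-1 d6 and 5FU-1 d6 libraries carry a name suffix whose meaning is not stated, so comparisons of either group with any other group cannot be told apart from whatever the suffix marks.

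Beta 2 integrins are adhesion receptors of white blood cells. The beta chain pairs with one of several alpha chains, alpha M in Mac-1, alpha X (Itgax) in CD11c/CD18, alpha L (Itgal) in LFA-1 and alpha D (Itgad), and an alpha chain reaches the cell surface with the beta chain as its partner. Mac-1 is abundant on granulocytes, monocytes and macrophages, where it binds complement fragments, fibrinogen and ICAM-1. CD45 (Ptprc) is a tyrosine phosphatase on all nucleated blood cells, B220 is one of its splice forms, and counts per gene do not separate splice forms. CD4, CD8a and CD3e belong to the T cell receptor apparatus. Ly6C, made from the neighbouring genes Ly6c1 and Ly6c2, is a small lipid-anchored protein of monocytes, endothelium and some lymphocytes, and the Gr-1 antibody binds Ly6G and, less strongly, Ly6C.

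On the GRCm38 build in the GENCODE vM21 annotation, Itgam lies at chr7:128062640-128118491 on the plus strand with Itgax downstream at chr7:128129547-128150657, and Itgb2 lies at chr10:77530252-77565708, also on the plus strand. Cd4 (chr6:124864692-124888221, minus strand) and Cd8a (chr6:71373427-71379173, plus strand) share chromosome 6. Cd3e lies at chr9:44998740-45009627 and Ptprc at chr1:138062861-138175708, both on the minus strand. Ly6c1 (chr15:75044018-75048830) and Ly6c2 (chr15:75108158-75111970) are both on the minus strand of chromosome 15. Counts covered whole genes, so they do not resolve exons, introns or untranslated regions.

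The Ly6c1 and Ly6c2 sequences are shown because the results turn on counting this pair apart. Their coding sequences, built from the GENCODE transcripts, both have 393 bases, with 9 differing bases and 97.71% identity. The first 75 coding bases, a window of the read length, hold 6 of the differences, which are in capitals:
Ly6c1: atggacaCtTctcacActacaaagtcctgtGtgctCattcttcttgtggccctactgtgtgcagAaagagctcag
Ly6c2: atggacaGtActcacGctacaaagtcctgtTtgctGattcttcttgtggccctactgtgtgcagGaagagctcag

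Coding bases 66 to 140 are the same in both genes, so a read of these 75 bases cannot be assigned to one of them:
Ly6c1 and Ly6c2: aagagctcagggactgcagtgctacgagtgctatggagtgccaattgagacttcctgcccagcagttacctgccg

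The longest identical coding run was 188 bases. Over whole transcripts, 164 of the 75-base words were shared between the genes, 21.3% of those of Ly6c1 and 21.9% of those of Ly6c2. How reads with several alignments were counted is not stated, so the split of reads between Ly6c1 and Ly6c2 is uncertain and their sum is given beside them. Ly6c1 also shared 15 such words, 1.95% of its own, with the far more abundant Ly6a, and the sum does not cover these. Itgax shared 240 such words with its neighbour Itgad. Itgam shared 71.7% of its words with an overlapping annotated transcript of another gene model, Gm49368, which is not a row of the count table.

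The Itgam promoter is shown because Itgam encodes the alpha chain particular to Mac-1, and because it is the member with the most matches to the purine-rich core GAGGAA. This core is of the type bound by PU.1, an ETS factor of myeloid cells. The sequence is from RefSeq on GRCm38.p6, chr7:128062390-128062689, plus strand, 250 bases before to 50 after the annotated start, with GAGGAA or its reverse complement TTCCTC in capitals:
Itgam promoter: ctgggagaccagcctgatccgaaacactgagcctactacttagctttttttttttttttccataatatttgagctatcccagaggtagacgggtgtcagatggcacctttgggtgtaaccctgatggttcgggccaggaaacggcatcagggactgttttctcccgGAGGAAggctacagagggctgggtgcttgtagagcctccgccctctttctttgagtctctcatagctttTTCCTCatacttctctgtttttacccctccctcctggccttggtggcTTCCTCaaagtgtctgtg

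It held 3 matches, and 0.685% of the 32851 promoters of this length held at least 3, against 28.3% with at least 1. Of the 9 genes, 7 had a promoter entry, and Itgb2 and Cd4 had none. Itgax, next to Itgam, had 0 matches. The 2 promoter entries of Ly6c2 overlap and held the same 2 matches, and the 2 entries of Ly6c1 held 1 and 2. These matches are descriptions of letters and not binding sites.

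Transcript levels over the 21 libraries spanned the whole range from abundant to absent. Levels are given as CPM, the count scaled to a common library total after TMM normalization over the 21 libraries. Total counts were between 22184885 and 38649033 per library, and 3 counts, taken as the floor, corresponded to 0.0776 to 0.135 CPM depending on the library. Per kilobase of the longest coding transcript, the mean level of Ptprc was 85.0 CPM, that of Itgb2 8.50, that of Itgam 3.58, that of Ly6c1 2.58, that of Ly6c2 0.878 and that of Cd4 0.305. The leukocyte gene Ptprc was thus far above the lineage antigens proper on the per-length scale.

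The T cell genes Cd8a and Cd3e and the dendritic cell gene Itgax were at or near 0. Cd8a, which encodes the CD8 alpha chain, had 0 counts in all 21 libraries, which allows a level of up to 0.135 CPM in the shallowest library. Cd3e, the CD3 epsilon chain, had 1 count in 1 library, the third of 5FU-1 d21. Itgax had 18 counts in 5 libraries, and 12 of them were in the third PBS-1 d6 library. These 3 genes did not pass the filter on low counts in any comparison.

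Itgam was detected in every library, with 119 to 1350 counts and 10182 in all. In PBS-1 d6 the 3 libraries had 11.6, 17.6 and 9.17 CPM, and in 5FU-1 d6 they had 4.96, 6.54 and 7.09 CPM. The PBS-3 d6 libraries had 6.90, 14.5 and 15.3 CPM and the 5FU-3 d6 libraries 15.8, 11.1 and 7.40 CPM. Every 5FU-1 d6 library was thus below every PBS-1 d6 library, while the ranges after 3 administrations overlapped. At day 21 the levels were 26.6, 24.1 and 24.1 CPM in 5FU-1 d21, and 24.4, 18.2 and 22.9 CPM in 5FU-3 d21. All 6 of these libraries were above all 12 of the day 6 groups. The old libraries were spread widely, at 11.9, 23.0 and 49.1 CPM, and the third of them was the highest of the 21.

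In order of their means, Itgam was highest in old HSCs (28.0 ± 19.1 CPM, SD, n = 3), then in 5FU-1 d21 (24.9 ± 1.47) and 5FU-3 d21 (21.8 ± 3.21), then in PBS-1 d6 (12.8 ± 4.32), PBS-3 d6 (12.2 ± 4.64) and 5FU-3 d6 (11.4 ± 4.21), and lowest in 5FU-1 d6 (6.20 ± 1.10). Among neighbours in this order, only 5FU-3 d21 against PBS-1 d6 and 5FU-3 d6 against 5FU-1 d6 had libraries that did not overlap.

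Itgb2 moved the other way at day 6. The PBS-1 d6 libraries had 26.7, 16.9 and 22.9 CPM and those of 5FU-1 d6 had 34.9, 36.4 and 33.1 CPM. The PBS-3 d6 libraries had 15.5, 19.7 and 20.2 CPM, and the 5FU-3 d6 libraries had 36.4, 36.5 and 36.5 CPM. Thus the 6 libraries taken 5 days after 5-FU, at 33.1 to 36.5 CPM, lay above the 15 others, at 15.5 to 26.7 CPM. At day 21 the levels were 25.0, 20.6 and 23.9 CPM in 5FU-1 d21 and 21.2, 22.6 and 23.3 CPM in 5FU-3 d21, and the old libraries had 17.3, 22.1 and 18.6 CPM. These 3 groups overlapped the PBS-1 d6 libraries, while every 5FU-3 d21 library lay above every PBS-3 d6 library.

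By group mean, Itgb2 was at 36.5 ± 0.0494 CPM in 5FU-3 d6, 34.8 ± 1.64 in 5FU-1 d6, 23.2 ± 2.31 in 5FU-1 d21, 22.4 ± 1.03 in 5FU-3 d21, 22.2 ± 4.94 in PBS-1 d6, 19.3 ± 2.46 in old HSCs and 18.5 ± 2.56 in PBS-3 d6. From 5FU-1 d21 down, each neighbour in this order overlapped the next.

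Ptprc, the CD45 gene, stayed within a narrow range relative to its level. Its libraries ranged from 363 to 524 CPM, and the group means lay between 393 ± 29.6 CPM in 5FU-3 d6 and 472 ± 15.6 CPM in 5FU-3 d21. The other means were 471 ± 45.8 CPM in 5FU-1 d21, 438 ± 9.22 in PBS-1 d6, 422 ± 12.2 in old HSCs, 414 ± 25.6 in 5FU-1 d6 and 408 ± 36.8 in PBS-3 d6. Neighbouring groups overlapped except PBS-1 d6 and old HSCs.

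Ly6c1 was low in most groups and highest 5 days after a single 5-FU administration. The 5FU-1 d6 libraries had 4.17, 5.88 and 5.19 CPM, from 100 to 160 counts, against 1.27, 0.640 and 1.46 CPM in PBS-1 d6. In 5FU-3 d6 the levels were 3.20, 2.56 and 1.15 CPM, against 1.42, 1.50 and 1.42 CPM in PBS-3 d6. The single-administration groups did not overlap and the groups given 3 administrations did. At day 21 the levels were 0.196, 0.807 and 2.95 CPM in 5FU-1 d21 and 1.20, 1.06 and 1.27 CPM in 5FU-3 d21, and the old libraries had 3.55, 3.22 and 1.67 CPM. The third 5FU-1 d21 library stood above the other two of its group for both Ly6c genes. By group mean, 5FU-1 d6 (5.08 ± 0.862 CPM) was followed by old HSCs (2.81 ± 1.00), whose libraries lay below all of 5FU-1 d6, and each later neighbour in the order overlapped the next, down to PBS-1 d6 (1.12 ± 0.430).

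Ly6c2 was lower and less even. It had 445 counts in all, spread over 16 libraries, and its group means ran from 0.232 ± 0.370 CPM in 5FU-3 d21 to 1.11 ± 1.63 CPM in 5FU-1 d21. The highest library, at 2.98 CPM, was the third of 5FU-1 d21, and another library of that group had 0 counts. All neighbouring groups overlapped. The sum of Ly6c1 and Ly6c2, which does not depend on the split of reads between them, was 4.67, 6.40 and 6.67 CPM in 5FU-1 d6 and 2.83, 1.39 and 1.94 CPM in PBS-1 d6. The sum was thus also higher in every 5FU-1 d6 library. Ly6c1 made up 397 of 462 counts of the pair in 5FU-1 d6 and 85 of 158 in PBS-1 d6. The sum was chosen after the values were seen.

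Cd4 had 555 counts in 17 libraries. It was highest in the PBS groups, at 3.83, 1.81 and 1.29 CPM in PBS-1 d6 and 1.71, 0.593 and 2.42 CPM in PBS-3 d6. In 5FU-1 d6 it was at 0.959, 1.10 and 1.25 CPM, and in 5FU-3 d6 at 0.487, 0 and 0.422 CPM. Both 5-FU groups lay below their PBS group at day 6 without overlap. At day 21 it was at 1.84, 0.0576 and 1.07 CPM in 5FU-1 d21 and at 0, 0 and 0.317 CPM in 5FU-3 d21. Old HSCs had 0, 0.410 and 0.363 CPM. Each group overlapped its neighbour in the order of the means, from 2.31 ± 1.34 CPM in PBS-1 d6 to 0.106 ± 0.183 CPM in 5FU-3 d21.

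**Figure D1:**
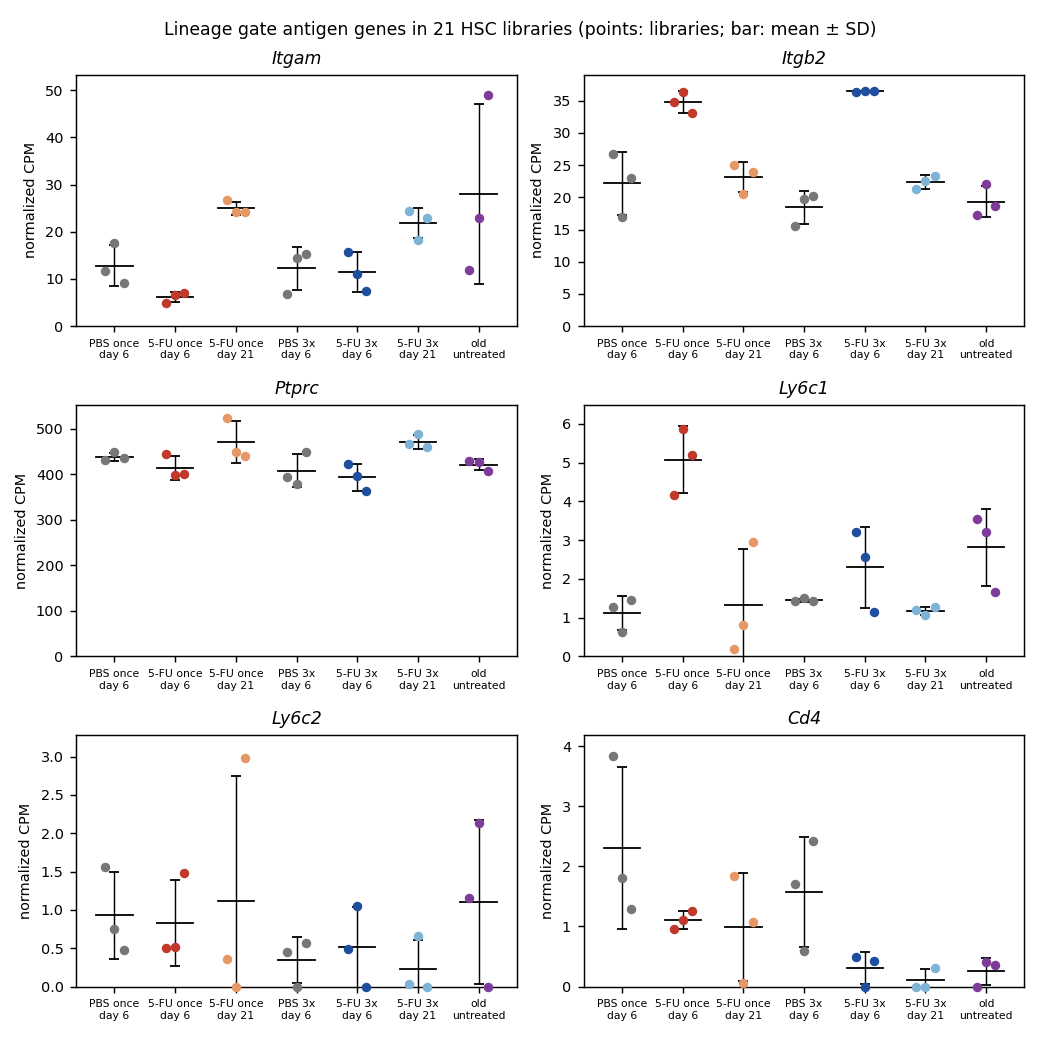
Normalized CPM of 6 lineage antigen genes in the 21 libraries (y axes, linear from 0; points are libraries, horizontal bars means and error bars SD, n = 3, cut off at 0). The 6 libraries taken 5 days after 5-FU have the highest Itgb2 levels, 33.1 to 36.5 CPM, and the lowest Itgam levels are those of 5FU-1 d6, 4.96 to 7.09 CPM with 1 PBS-3 d6 library at 6.90.

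The first comparison asks how a single 5-FU administration changed these genes at day 6, with PBS-1 d6 as the control. Itgam fell 2.06-fold in the ratio of means, with a log2 fold change of -1.03 (SE 0.26, adjusted p = 0.0306 by the quasi-likelihood test of edgeR). Itgb2 rose by 0.66 on the log2 scale (SE 0.16, adjusted p = 0.0271 by edgeR), and Ly6c1 rose by 2.19 (SE 0.39, adjusted p = 0.00959 by edgeR), 4.53-fold in means. The 2 chains of Mac-1 thus moved in opposite directions. Of the 9 genes 6 were tested, and 3 passed the threshold of 0.05 after adjustment over all genes, against 22.2% of all 12759 genes tested. The median log2 fold change of the 6 was -0.11, and that of all genes tested was -0.00056. Groups did not overlap for 4 of the 6, against 43.6% of all genes tested.

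The remaining members did not pass in this comparison. Cd4 had a log2 fold change of -1.05 (95% interval -2.27 to 0.17), Ly6c2 of -0.15 (-1.84 to 1.54) and Ptprc of -0.07 (-0.22 to 0.08). For Ptprc the interval is narrow around 0, while those of Cd4 and Ly6c2 span changes of more than 1 log2 unit. The Ly6c1 call was kept under all 13 alternatives. Itgam lost its call when any one of the 5FU-1 d6 libraries or the first or second PBS-1 d6 library was left out (adjusted p 0.0566 to 0.0913 by edgeR), and Itgb2 when any one of the 5FU-1 d6 libraries or the third PBS-1 d6 library was left out (0.0580 to 0.0773 by edgeR).

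The second comparison asks the same after 3 administrations. Itgb2 rose by 0.98 on the log2 scale (SE 0.11, adjusted p = 0.00369 by edgeR), 1.97-fold in means, and was the only one of 6 tested members past the threshold, against 18.1% of 12729 genes tested. The call was kept under all 13 alternatives. Itgam had a log2 fold change of -0.10 (95% interval -0.96 to 0.76), Ly6c1 of 0.66 (-0.49 to 1.82), Cd4 of -2.36 (-5.15 to 0.44), Ly6c2 of 0.58 (-3.26 to 4.41) and Ptprc of -0.06 (-0.28 to 0.16). Groups did not overlap for Itgb2 and Cd4, 2 of 6, against 39.9% of all genes tested. The median of the 6 was 0.26 and that of all genes -0.01.

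Whether the effect of 5-FU differed between the schedules was tested as an interaction over 12 libraries. None of the 6 members tested passed by edgeR, against 0.650% of 13227 genes, 1 had an unadjusted p under 0.05 (Ly6c1), and DESeq2 called 0. The difference of log2 fold changes, 3 administrations minus 1, was -1.51 for Ly6c1 (95% interval -2.82 to -0.20, adjusted p = 0.263 by edgeR), 0.94 for Itgam (-0.15 to 2.03, adjusted p = 0.414 by edgeR) and 0.33 for Itgb2 (-0.13 to 0.78, adjusted p = 0.510 by edgeR). The fall of Itgam and rise of Ly6c1 after a single administration were therefore not shown to differ from the values after 3.

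The same mice were not followed over time, but day 21 was compared with day 6 within each schedule. Per the methods, the gate was widened at no other point than 5 days after 5-FU. Sorting without the Mac-1 antibody is likewise described for that point alone. These comparisons therefore also cross the change of sort, and the parts of sort and time cannot be told apart. After a single administration Itgam rose by 1.99 on the log2 scale from day 6 to day 21 (SE 0.15, adjusted p = 0.000717 by edgeR), 4.02-fold in means. Itgb2 decreased by 0.60 (SE 0.10, adjusted p = 0.00733 by edgeR). These were 2 of 6 members tested, against 26.0% of 12589 genes, and both calls were kept under all 13 alternatives. Groups did not overlap for 3 of the 6, against 46.1% of all genes tested. Ly6c1 had a log2 fold change of -1.95 (95% interval -3.84 to -0.05, adjusted p = 0.117 by edgeR), and without the third 5FU-1 d21 library it was -3.31 and passed (adjusted p = 0.0183 by edgeR). Ptprc was at 0.17 (-0.04 to 0.38), Ly6c2 at 0.41 (-2.95 to 3.77) and Cd4 at -0.18 (-2.49 to 2.13).

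After 3 administrations Itgam rose by 0.92 (SE 0.26, adjusted p = 0.0479 by edgeR), 1.91-fold in means, and Itgb2 decreased by 0.72 (SE 0.080, adjusted p = 0.00205 by edgeR). These were 2 of 5 members tested, against 19.5% of 12553 genes, and Cd4 did not pass the filter on low counts. Groups did not overlap for 3 of the 5, against 41.1% of all genes tested. Ptprc was at 0.25 (95% interval 0.06 to 0.44, adjusted p = 0.0678 by edgeR), Ly6c1 at -0.98 (-2.17 to 0.22) and Ly6c2 at -1.11 (-5.07 to 2.84). Ptprc was called under 3 of 13 alternatives, DESeq2 among them (adjusted p = 0.00873 by DESeq2). The Itgam call was lost when any 5FU-3 d21 library or the second or the third 5FU-3 d6 library was left out (adjusted p 0.0634 to 0.130 by edgeR), and the Itgb2 call was kept under all 13 alternatives. The day 21 comparisons share their day 6 libraries with the comparisons to PBS.

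**Figure D2:**
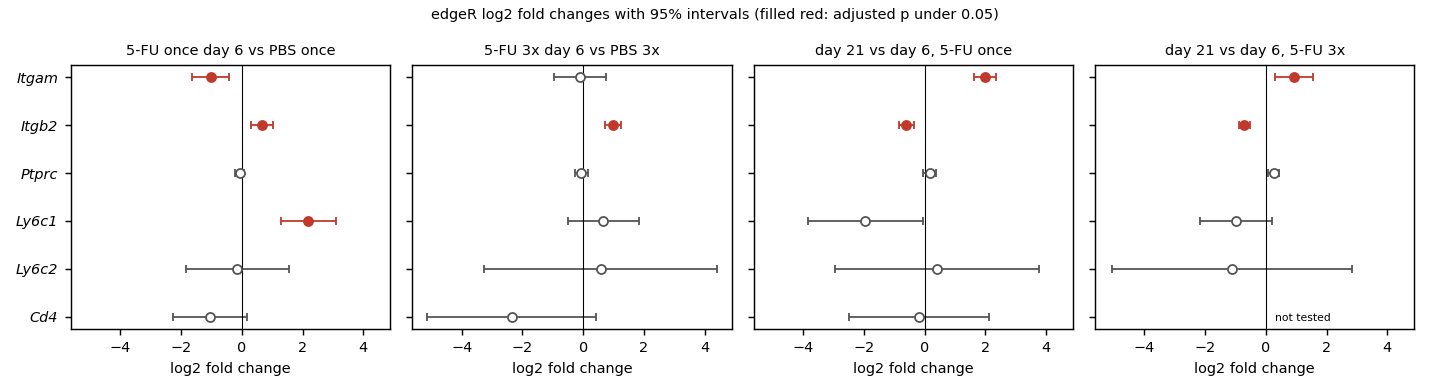
Log2 fold changes from edgeR (x axes) of 6 genes in 4 comparisons, with bars for 95% intervals and filled red points for an adjusted p under 0.05. Itgam and Itgb2 lie on opposite sides of 0 in every panel, although Itgam after 3 administrations at day 6, at -0.10, has an interval across 0.

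Against PBS at day 6, the HSCs at day 21 gave no call by edgeR. For 5FU-1 d21, 0 of 6 members passed, against 0.221% of 12647 genes, and 1 had an unadjusted p under 0.05, namely Itgam. Its log2 fold change was 0.96 (95% interval 0.44 to 1.48, adjusted p = 0.132 by edgeR), 1.95-fold in means with no overlap of libraries, and DESeq2 called it (adjusted p = 0.00708) and no other member. Groups did not overlap for 1 of 6 members, against 21.1% of all genes. The other values were 0.06 for Itgb2, 0.10 for Ptprc, 0.24 for Ly6c1, 0.26 for Ly6c2 and -1.23 for Cd4, each with an interval across 0.

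For 5FU-3 d21, 0 of 6 passed by edgeR, against 0.0475% of 12632 genes, and DESeq2 called 0. Unadjusted, 3 had a p under 0.05. Itgam had a log2 fold change of 0.83 (95% interval 0.14 to 1.52, adjusted p = 0.296 by edgeR), Ptprc of 0.20 (0.01 to 0.40, adjusted p = 0.352 by edgeR) and Cd4 of -3.88 (-7.25 to -0.50, adjusted p = 0.311 by edgeR). The Cd4 value rests on 8 counts, all in the third 5FU-3 d21 library. Itgb2 was at 0.27 (-0.02 to 0.56), Ly6c1 at -0.30 (-1.38 to 0.77) and Ly6c2 at -0.53 (-4.59 to 3.53). For 5 of the 6 members, Itgam, Itgb2, Cd4, Ptprc and Ly6c1, the groups did not overlap, against 21.4% of all genes.

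For age, old HSCs were compared with PBS-1 d6, and 0 of 6 members passed by edgeR, against 1.88% of 12855 genes. Unadjusted, 3 had a p under 0.05. Itgam was at a log2 fold change of 1.14 (95% interval 0.04 to 2.24, adjusted p = 0.332 by edgeR), and at 0.45 without the third old library. Ly6c1 was at 1.33 (0.12 to 2.55, adjusted p = 0.298 by edgeR) and Cd4 at -3.11 (-5.50 to -0.72, adjusted p = 0.219 by edgeR), and DESeq2 called Cd4 (adjusted p = 0.0228) and no other member. For Cd4, Ptprc and Ly6c1, 3 of 6, the groups did not overlap, against 20.9% of all genes tested. Itgb2 was at -0.19 (-0.60 to 0.23), Ptprc at -0.05 (-0.19 to 0.09) and Ly6c2 at 0.25 (-2.61 to 3.10). Between the controls, PBS-3 d6 against PBS-1 d6, 0 of 6 passed by edgeR, against 0.0156% of 12806 genes, 0 had an unadjusted p under 0.05 and DESeq2 called 0. Groups overlapped for all 6, and did not for 20.2% of all genes tested. The log2 fold changes there were -0.06 for Itgam, -0.26 for Itgb2, -0.10 for Ptprc, 0.37 for Ly6c1, -0.55 for Cd4 and -1.44 for Ly6c2.

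The balance of the Mac-1 chains can be read within a library, where depth and normalization cancel. The ratio of Itgam to Itgb2, in counts per kilobase, was chosen after the values were seen. It was 0.276, 0.660 and 0.254 in PBS-1 d6 and 0.0903, 0.114 and 0.136 in 5FU-1 d6, and 0.282, 0.466 and 0.482 in PBS-3 d6 and 0.276, 0.193 and 0.129 in 5FU-3 d6. The ratio was lower in each 5-FU group at day 6 than in its PBS group, without overlap, although the highest 5FU-3 d6 library and the lowest PBS-3 d6 library nearly met. It was 0.675, 0.743 and 0.640 in 5FU-1 d21 and 0.728, 0.513 and 0.625 in 5FU-3 d21. In old HSCs it was 0.438, 0.660 and 1.67, and only in the last of these libraries did Itgam exceed Itgb2 per kilobase.

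By the geometric means, the ratio was 3.21-fold lower in 5FU-1 d6 than in PBS-1 d6 and 2.10-fold lower in 5FU-3 d6 than in PBS-3 d6. From day 6 to day 21 it was 6.12-fold higher after a single administration and 3.24-fold higher after 3. Each of these 4 comparisons had a two-sided exact permutation p of 0.1 over 20 assignments of 6 libraries, the smallest that 3 against 3 can give. Adjusted over the 7 comparisons of the ratio, the 5 permutation p-values of 0.1 became 0.14 and the others stayed at 0.2. Against PBS at day 6, the ratio at day 21 was 1.91-fold higher after a single administration, with overlapping libraries (exact permutation p = 0.2), and 1.54-fold higher after 3, without overlap (exact permutation p = 0.1). In old HSCs it was 2.19-fold higher than in PBS-1 d6, with overlap (exact permutation p = 0.2).

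**Figure D3:**
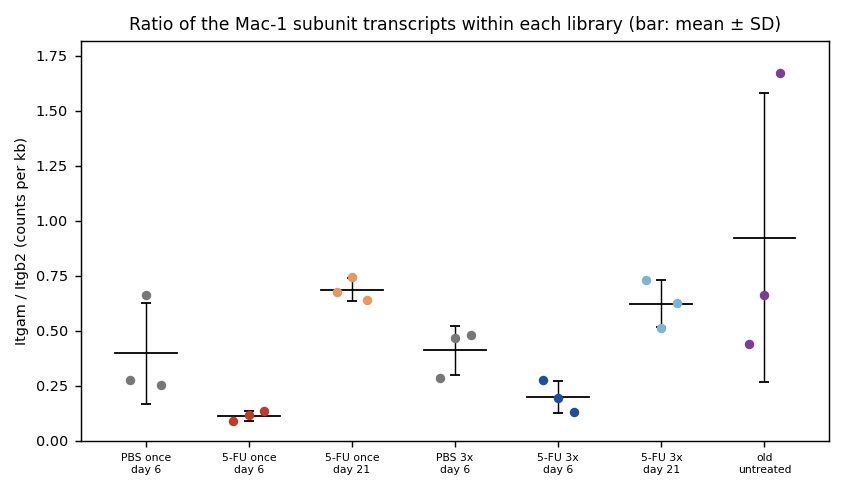
Ratio of Itgam to Itgb2 in counts per kilobase (y axis, linear from 0) in the 21 libraries (points), with horizontal bars for group means and error bars for SD, n = 3. The 6 libraries taken 5 days after 5-FU lie between 0.0903 and 0.276, and the 6 day 21 libraries between 0.513 and 0.743.

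The share of all genes tested that passed at day 6 was 22.2% after a single administration and 18.1% after 3. From day 6 to day 21 it was 26.0% and 19.5%. These shares are the background for the lists of genes below. Among other genes of the beta 2 integrin system, 1 of 8 tested passed at day 6 after each schedule, beside 22.2% and 18.1% of all genes. The gene that rose, Itgal, did so after 3 administrations. Of 9 such genes (alpha chains, activators such as Fermt3, Tln1 and Rap1b, and ligands), 8 were tested after a single administration at day 6. Of these, 0 rose and 1 fell, Rap1b, a small GTPase of integrin activation (log2 fold change -0.28, adjusted p = 0.0474 by edgeR). After 3 administrations 1 of 8 rose and 0 fell. That gene was Itgal, the alpha L chain of LFA-1, which was at 62.6, 66.1 and 79.6 CPM in 5FU-3 d6, a mean of 69.4, and at 22.2 ± 12.4 CPM in PBS-3 d6 (log2 fold change 1.64, SE 0.37, adjusted p = 0.0248 by edgeR). From day 6 to day 21 after 3 administrations Itgal decreased by 1.65 (adjusted p = 0.00379 by edgeR), the same direction as Itgb2. At day 21 against PBS at day 6, 0 of 9 tested genes of the list passed by edgeR after a single administration and 0 of 8 after 3.

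For CD45, 7 genes of associated proteins and Src family kinases were followed. At day 6 after a single administration 1 of 7 fell and 0 rose, namely Lyn, a Src family kinase of myeloid and B cells (-0.43, adjusted p = 0.0440 by edgeR). After 3 administrations 0 of 7 passed. Of 7 genes of the CD3 and T cell receptor system only 2, Cd247 (CD3 zeta) and Lat (an adaptor), passed the filter on low counts at day 6, and both fell. Cd247 fell by 1.32 after a single administration and by 1.20 after 3 (adjusted p = 0.0145 and 0.0242 by edgeR), and Lat by 1.15 and 0.94 (0.00809 and 0.00380). Cd247 was at 9.29 ± 2.56 CPM in PBS-1 d6 and 3.69 ± 0.806 CPM in 5FU-1 d6, while Cd3e had 1 count in all libraries.

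Of 9 Ly6 family genes of chromosome 15 other than Ly6c1 and Ly6c2, 3 passed the filter on low counts and were tested at day 6. One of them, Ly6a, which encodes Sca-1, rose by 1.01 after a single administration (SE 0.093, adjusted p = 0.00137 by edgeR), from 268 ± 12.7 to 538 ± 60.8 CPM. After 3 administrations 0 of 3 passed, with Ly6a at 0.23 (adjusted p = 0.0777 by edgeR). The interaction for Ly6a was -0.77 (adjusted p = 0.0170 by edgeR), the same sign as that of Ly6c1. Ly6a was at 405 ± 23.4 CPM in PBS-3 d6 and 477 ± 24.4 CPM in 5FU-3 d6. Between PBS-3 d6 and PBS-1 d6 its libraries did not overlap, while 0 of 4 tested genes of the list passed by edgeR. The part of reads shared with Ly6a in the Ly6c1 values was not tested. In old HSCs 2 of 3 were higher than in PBS-1 d6, while 1.88% of all genes tested passed. They were Ly6a by 0.62 (adjusted p = 0.00601 by edgeR) and Ly6e by 0.58 (adjusted p = 0.00103 by edgeR). Beside PBS-3 d6, Ly6a overlapped, at 409 ± 12.5 CPM in old HSCs and 405 ± 23.4 CPM in PBS-3 d6. Ly6e was at 3536 ± 68.0 CPM in old HSCs and 3069 ± 51.5 CPM in PBS-3 d6. Ly6g, the main target of the Gr-1 antibody, had 71, 1 and 14 counts in PBS-1 d6, 20 in one library each of PBS-3 d6 and 5FU-1 d21, and 0 in the remaining 16 libraries, all 6 taken 5 days after 5-FU among them.

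Some genes of the other sorting antigens changed as well, both selected and excluded ones. Kit, the gene of c-Kit, whose gate was widened, fell by 0.86 after a single administration and by 0.44 after 3 at day 6 (adjusted p = 0.00111 and 0.00701 by edgeR). Flt3, whose product the sort excluded, fell by 1.97 and 1.18 (0.00550 and 0.0120). Cd48, also excluded, rose by 0.82 and 1.90 (0.0262 and 0.00374), from 3.05 ± 0.840 to 11.4 ± 0.613 CPM after 3 administrations. Slamf1 (CD150) was at 0.26 in both comparisons (adjusted p = 0.0994 and 0.166 by edgeR). Of 12 genes typical of HSCs all 12 were tested, and 3 rose and 4 fell after a single administration, 1 and 5 after 3. Among all genes tested, 22.2% and 18.1% passed in these comparisons.

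Markers of other blood cells, not all of them mature, were read in the same libraries, since Mac-1 and Ly6C mark some of these cells. Of 12 granulocyte genes, 9 were tested after a single administration at day 6, and 5 fell and 0 rose. Examples are Ngp (-3.63, adjusted p = 0.0131 by edgeR), S100a9 (-2.99, 0.0185) and Mpo (-2.80, 0.0253). The summed level of the 12 was 18.1 to 29.9 CPM in 5FU-1 d6 and 47.9 to 99.7 CPM in PBS-1 d6. A large part of the 5FU-1 d6 sum was Prtn3, named after its values were seen. It was at 15.8 ± 1.38 CPM in 5FU-1 d6 and 18.7 ± 0.367 CPM in PBS-1 d6. After 3 administrations 2 of 8 fell and 0 rose, and the sum was 15.6 to 26.1 CPM in 5FU-3 d6 and 46.0 to 68.9 CPM in PBS-3 d6. Mmp8 had counts in PBS-1 d6 alone and was at 0 in every other group. Cd177 was at 0 in both 5-FU groups at day 6 and in old HSCs, and had 5 counts in PBS-3 d6. The granulocyte sum was thus lower than in PBS after both schedules, without overlap, while the log2 fold change of Itgam was -1.03 after a single administration and -0.10 after 3, and Itgb2 was higher after both. The part of these genes in the Itgam and Itgb2 values was not tested. At day 21 the sum was 44.5 to 132 CPM in 5FU-1 d21 and 55.0 to 85.8 CPM in 5FU-3 d21, and in old HSCs it was 38.9 to 54.1 CPM. From day 6 to day 21, where Itgam rose, 5 of 8 tested granulocyte genes rose and 0 fell after a single administration, and 3 of 9 rose and 0 fell after 3.

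Of 10 monocyte and macrophage genes, 0 of 5 tested passed after a single administration and 0 of 6 after 3 by edgeR. Their sum was 54.3 to 58.6 CPM in 5FU-1 d6 against 53.1 to 62.7 CPM in PBS-1 d6, and 44.3 to 62.3 CPM in 5FU-3 d6 against 53.6 to 57.1 CPM in PBS-3 d6. Cx3cr1 was at 0 in both 5FU-1 d6 and PBS-1 d6, and Ccr2 in both 5FU-3 d6 and PBS-3 d6. F13a1 was at 0 in PBS-1 d6 but not in 5FU-1 d6, and Fcgr1 in PBS-3 d6 but not in 5FU-3 d6. The sums overlapped in both comparisons, and most of each sum was Lyz2, the lysozyme gene, at 38.5 ± 2.78 CPM in 5FU-1 d6 and 44.5 ± 0.844 CPM in PBS-1 d6, named after its values were seen. The median log2 fold change of the tested genes was -1.11 after a single administration and 0.15 after 3, and the part of this list in the Itgb2 and Ly6c1 values was not tested. From day 6 to day 21 after a single administration 1 of 7 tested rose (Ms4a6c, 0.45, adjusted p = 0.0328 by edgeR) and 0 fell. After 3 administrations 1 of 5 fell, Adgre1 (F4/80, a macrophage receptor), which was at 0.823 to 4.72 CPM in 5FU-3 d6 and had 0 counts in 5FU-3 d21. After a single administration Adgre1 went the other way, from 0.382 ± 0.386 CPM in 5FU-1 d6 to 3.41 ± 0.511 CPM in 5FU-1 d21, and did not pass.

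Of 10 T and NK cell genes 3 were tested, and 2 fell at day 6 after each schedule. In both, 1 of the 2 was Cd247, already counted above with the CD3 system. Nkg7 was at 15.3 ± 1.32 CPM in PBS-1 d6, 7.94 ± 0.764 in 5FU-1 d6, 17.3 ± 0.883 in PBS-3 d6 and 16.0 ± 1.38 in 5FU-3 d6. Klrb1c was at 7.25 ± 3.45, 6.12 ± 0.853, 11.3 ± 2.91 and 4.61 ± 2.14 CPM in the same order. Both were named after their values were seen. The sum of the 10 was 16.3 to 19.8 CPM in 5FU-1 d6 against 28.4 to 37.5 CPM in PBS-1 d6, and 22.4 to 27.2 CPM in 5FU-3 d6 against 32.1 to 42.3 CPM in PBS-3 d6. Bcl11b, Gzma and Ncr1 were at 0 in these 4 groups, and the part of the sum in the Cd4 values was not tested. Of 8 erythroid genes, 7 were tested, and 2 rose and 1 fell after a single administration, with Hbb-bt (2.69, adjusted p = 0.000321 by edgeR), Hbb-bs (2.85, 0.000524) and Klf1 (-3.03, 0.00621). After 3 administrations 3 of 6 rose and 0 fell. The erythroid sum, mostly globin, was 104 to 115 CPM in 5FU-1 d6 against 29.4 to 38.2 CPM in PBS-1 d6, higher where Ly6c1 and Itgb2 were higher, and its part in either was not tested.

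**Figure D4:**
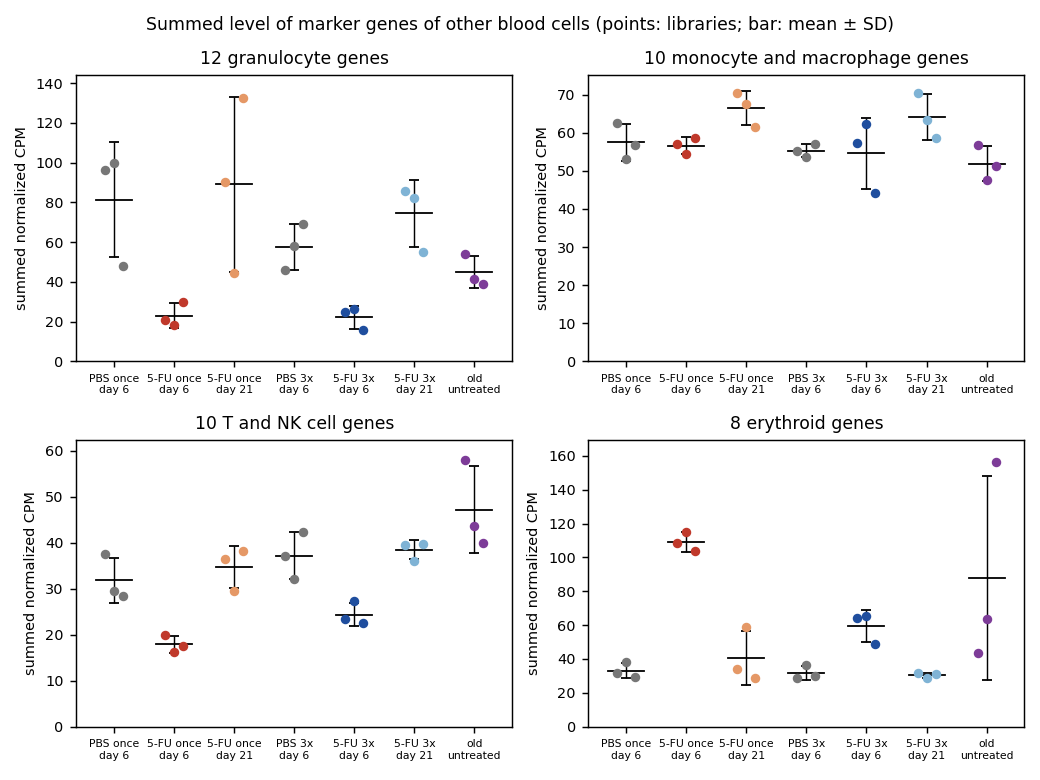
Summed normalized CPM of marker genes of granulocytes, monocytes and macrophages, T and NK cells, and erythroid cells (y axes, linear from 0) in the 21 libraries (points), with group means and SD, n = 3. The granulocyte sum is 15.6 to 29.9 CPM in the 6 libraries taken 5 days after 5-FU and 38.9 CPM or more in the other 15.

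Of 7 dendritic cell genes 4 were tested at day 6 and 0 passed by edgeR in either schedule, with sums of 44.5 to 52.0 CPM in 5FU-1 d6 and 42.5 to 54.7 CPM in PBS-1 d6. Of 8 B and plasma cell genes 0 of 3 passed after a single administration and 1 of 3 fell after 3 (Cd79b, -0.46, adjusted p = 0.0270 by edgeR), and Pax5 was at 0 in the 4 day 6 groups. Of 6 endothelial genes 0 of 5 passed after a single administration, and after 3 Plvap rose (2.85, adjusted p = 0.0103 by edgeR) and Emcn fell (-0.45, 0.0156). The endothelial sum was 316 to 330 CPM in 5FU-1 d6 against 356 to 435 CPM in PBS-1 d6, lower where Ly6c1, which endothelium also expresses, was higher. Most of it was Tek and Pecam1, at 154 ± 22.3 and 132 ± 13.9 CPM in 5FU-1 d6 and 204 ± 22.1 and 151 ± 29.7 CPM in PBS-1 d6. Cdh5 and Plvap were at 0.0818 and 0.575 CPM in 5FU-1 d6 and 0.0124 and 0.740 CPM in PBS-1 d6. Tek, Pecam1 and Cdh5 were named after their values were seen. The part of the sum in Ly6c1 was not tested.

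The genes whose levels followed those of Itgam, Itgb2 and Ptprc most closely were sought over the 21 libraries among 10490 genes with a mean of at least 5 CPM, as a description. Points of one group share their treatment, so the correlations reflect the groups. For Itgam they included Zfp512 (Pearson r = 0.81) and Ccpg1 (0.79), each with its lowest group mean in 5FU-1 d6. For Itgb2 they were Tpm4 (0.93), a tropomyosin, Hspa4 (0.91), a chaperone, and Mbnl3 (0.91), each with its highest group means in 5FU-1 d6 and 5FU-3 d6. For Ptprc they were Stat6 (0.82), Parp8 (0.81) and Bnip3l (0.81). Between Itgam and Itgb2 themselves r was -0.46 (Spearman's rho -0.34), with no p-value given.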

How the data were processed

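RNA from 3000 to 3500 sorted HSCs per treated library was amplified with SMART-Seq v4, made into Nextera XT libraries and sequenced as single 75-base reads. Per the submitters' processing notes and the methods, the authors used TopHat2 2.0.13 with mm10 and Cuffdiff of Cufflinks 2.2.1, and deposited unnormalized counts per gene symbol. The counting program, strand use and the handling of reads with several alignments are not given in the sources used here. The 3 libraries of a group come from independent experiments per the methods, and the replicate numbers did not pair libraries (correlations of deviations near 0), so no block was used.

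Each comparison was fitted on its own libraries over the whole table with edgeR 4.0.16 (R 4.3.3, limma 3.58.1; filterByExpr, TMM, quasi-likelihood F test, Benjamini-Hochberg adjustment over all genes tested, threshold 0.05), and the scripts were tested on simulated data. Standard errors and 95% intervals derive from that test, and fold changes in means from normalized CPM. Permutation tests were exact and two-sided. DESeq2 1.42.0, other normalizations and filters, a single fit of all libraries and leaving out each library were alternatives. Depth limits the precision of genes with few counts, and floors cover counting error only. Named genes were the 9 members, the genes of the sorting gate, at most 3 genes per list with the lowest p among those past the threshold, marker genes at 0, and the 3 genes most alike to each member of at least 5 CPM by Pearson's r of log2(CPM + 1). The members and lists were chosen with earlier results of these data known. The sequence motif, the Ly6c sum and the Mac-1 ratio were chosen after the values were seen. Some genes covered by the rule for named genes are not reported here.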

Additional observations from a re-analysis of the deposited data

How the results depend on the processing

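Of 965 values under alternatives, 893 were unchanged by the rule for their kind. Fold changes had to keep their direction and their side of the threshold, and Mac-1 ratios their direction. Mean levels had to move by less than 1 SD. Counts of called members had to stay within a set factor, by which 2 calls in place of 3 are unchanged. Leaving out 1 library gave 1 to 2 called members in place of 3 for 5FU-1 d6 against PBS-1 d6, and 1 to 2 in place of 2 for 5FU-3 d21 against 5FU-3 d6, each with fewer samples. In 1 fit of all 21 libraries Itgam lost its call in both comparisons (adjusted p = 0.0929 and 0.109 by edgeR), and the cause was not tested. DESeq2 gave 1 call in place of 0 for 5FU-1 d21 against PBS-1 d6 and 1 for old against PBS-1 d6. Ly6c1 from day 6 to day 21 after a single administration was called in the fit of all libraries (-1.96, adjusted p = 0.0295 by edgeR). The replicate block changed no call, but Ly6c1 and Ly6c2 in 5FU-1 d21 against PBS-1 d6 became -0.29 and -1.56, Ly6c2 in 5FU-1 d21 against 5FU-1 d6 -0.94, and Ly6c2 in old against PBS-1 d6 -0.62 with the block. With library size alone Itgb2 in 5FU-1 d21 against PBS-1 d6 was -0.0050 and the interaction of Ptprc -0.043. With PBS-3 d6 as the control, old HSCs had Itgb2 at 0.064 and Ptprc at 0.043. Uncalled members whose sign turned without 1 library had these ranges of log2 fold change. For 5FU-1 d6 against PBS-1 d6, Ly6c2 ran from -0.86 to 0.45. For 5FU-3 d6 against PBS-3 d6, Itgam ran from -0.41 to 0.14, Ptprc from -0.11 to 0.021 and Ly6c2 from -0.48 to 1.17. For 5FU-1 d21 against PBS-1 d6, Itgb2 ran from -0.10 to 0.22, Ly6c1 from -1.15 to 0.74 and Ly6c2 from -2.42 to 0.86. For 5FU-3 d21 against PBS-3 d6, Ly6c2 ran from -3.88 to 0.051. For 5FU-1 d21 against 5FU-1 d6, Cd4 ran from -0.97 to 0.40 and Ly6c2 from -2.26 to 1.11. For old against PBS-1 d6, Ly6c2 ran from -0.68 to 0.84. For PBS-3 d6 against PBS-1 d6, Itgam ran from -0.26 to 0.25 and Cd4 from -1.003 to 0.026. For the interaction, Ptprc ran from -0.045 to 0.10 and Ly6c2 from -0.32 to 1.45. The Mac-1 ratio kept its direction without any 1 library in all 7 comparisons. Low counts limit Ly6c2 and Cd4 most.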
